A study of Rattus norvegicus with 6 samples.

Results

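The liver-type secreted and metabolic transcripts are 34 genes whose products are made mainly in hepatocytes, the parenchymal cells of the liver, and which were measured here in renal cortex. The array held 52 probes for them, out of 61453 probes analysed, and the 34 are part of 15639 genes with a symbol. The genes were chosen with the treatment difference of these same arrays in view, so that the difference between the groups is given for them as a description and without a test. Kidney samples came from 6 male Sprague-Dawley rats (Crl:CD(SD), an outbred stock) purchased when 5 weeks old. Dosing lasted 4 weeks: 3 rats were given corn oil, the vehicle (the control group), and 3 were given 1,2-dibromoethane, a halogenated solvent and former fumigant, at 75 mg/kg/day. Each rat gave 1 array hybridised with Cy3-labelled cRNA, and the series describes the 3 samples of a group as biological replicates. The route of dosing and the vehicle of the treated animals are not given in the sources used here, and a liver sample was not analysed here.

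Hepatocytes secrete most proteins of blood plasma, among them albumin, transport proteins for hormones, vitamins and iron, apolipoproteins, clotting factors and protease inhibitors. They also carry enzymes of amino acid catabolism and cytochrome P450 enzymes, several of which differ between male and female rats. The kidney reabsorbs many of these proteins from the filtrate, and its own tubule cells transcribe some of the same genes, such as those of tyrosine breakdown.

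Levels are log2 of the background-subtracted signal minus the log2 of the array's 75th percentile, so that 0 is the brightness of a probe brighter than 75% of the probes on its array. Each gene is represented by its brightest probe. Probes differ in how they bind, so that a level, and with it the class below, belongs to the probe. It does not measure amounts of RNA between genes. In control cortex the genes fell into 3 classes. Bright genes (9) were well above background, by the scanner software's own call, on all 3 control arrays with a mean above 0. Intermediate genes (16) were well above background on all 3 with a mean of 0 or below, and dim genes (9) were not well above background on at least 1 control array. Plg, at a control mean of 0.07, lay just inside the bright class, and Ttr, at -0.35, just outside it.

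**Figure D1:**
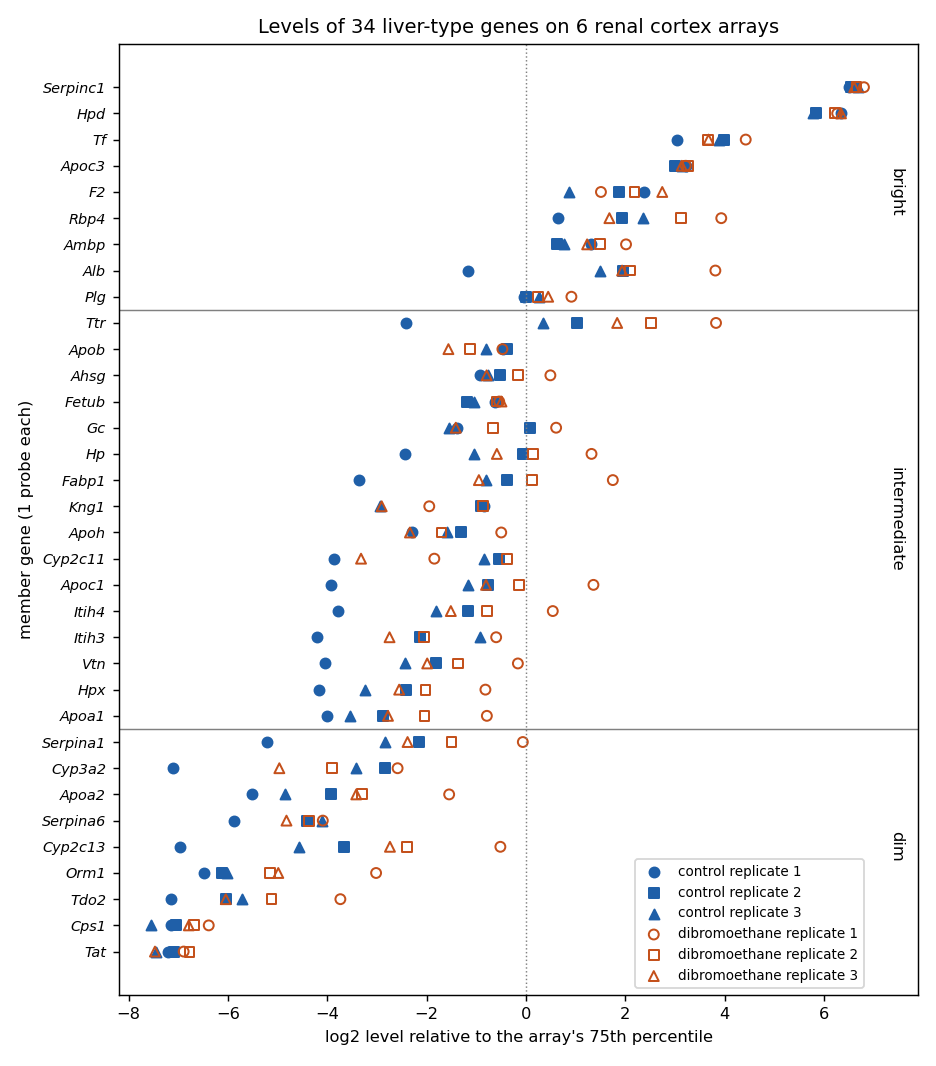
Level of each of the 34 genes on each of the 6 arrays (horizontal axis, log2 relative to the array's 75th percentile), by class in control cortex. Filled blue symbols are control arrays and open orange symbols dibromoethane arrays; for 19 of 29 tested genes control replicate 1 was the lowest array and dibromoethane replicate 1 the highest.

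A feature was tested where it was well above background on every array of at least 1 group, which held for 29 of the 34 genes, 4 of them (Apoa2, Cyp2c13, Cyp3a2 and Serpina1) through the treated group alone. Of the 29, 26 had a higher mean in treated than in control cortex. The bright genes had a median difference (treated minus control) of 0.44 with 9 of 9 higher, and the intermediate genes 1.05 with 13 of 16 higher. Of the 4 dim genes tested, each well above background on 2 of 3 control arrays, 4 were higher, and 3 were when the control array at background was raised to its lowest level well above background (the floor). Without control replicate 1 and dibromoethane replicate 1 together, which leaves 2 arrays against 2, these medians were 0.25 (8 of 9 higher) and 0.26 (11 of 16), and 3 of the 4 dim genes were higher. These 2 arrays were chosen after seeing the data, as the lowest and highest for most of the genes. Smaller differences without them follow largely by construction. Over all 28960 features tested the median difference was -0.02, and 46.4% were higher in treated rats. Of the 29, 5 were higher on every treated array than on any control array, beside 7.39% of all features. In limma 0 of the 29 passed an adjusted p of 0.05, beside 0.0311% of all features, and 8 had an unadjusted p under 0.05, beside 11.1%. Nothing is read from these counts, since the genes were chosen on this comparison. In bulk cortex more cells of a type and more RNA per cell cannot be told apart.

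Among the transport proteins of plasma, Alb encodes albumin, the most abundant of them. Its levels were -1.17, 1.94 and 1.50 in control replicates 1 to 3 and 3.81, 2.10 and 1.93 in dibromoethane replicates 1 to 3. The groups overlapped: control replicate 1 stood far below the other 5 arrays, and dibromoethane replicate 3 was level with control replicate 2. The group means were 0.76 ± 1.68 (SD, n = 3) and 2.62 ± 1.04 (SD, n = 3), a difference of 1.86 (SE 1.14). It was 0.89 without control replicate 1, 1.26 without dibromoethane replicate 1, and 0.30 without both.

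Ttr, transthyretin, carries thyroid hormone and, bound to Rbp4, vitamin A. Its levels were -2.42, 1.02 and 0.34 on the control arrays and 3.83, 2.51 and 1.84 on the treated arrays. All 3 treated arrays lay above all 3 controls, and the means were -0.35 ± 1.82 (SD, n = 3) and 2.72 ± 1.01 (SD, n = 3). The difference of 3.08 (SE 1.20) was 1.50 without control replicate 1 and dibromoethane replicate 1. Rbp4, the retinol carrier that kidney also reabsorbs, was bright at 1.65 ± 0.89 (SD, n = 3) in controls and 2.91 ± 1.14 (SD, n = 3) in treated rats, and its difference of 1.26 was 0.25 without those 2 arrays.

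Tf, the iron carrier transferrin, and Ambp, the precursor of alpha-1-microglobulin and bikunin, were also bright. Tf had a control mean of 3.64 and a difference of 0.28 that was -0.27 without control replicate 1 and dibromoethane replicate 1. Ambp, with a control mean of 0.90, had a difference of 0.68 that was 0.88 without control replicate 1, 0.46 without dibromoethane replicate 1 and 0.66 without both. The haemoglobin carrier haptoglobin (Hp) and the haem carrier haemopexin (Hpx) were intermediate, with differences of 1.48 each (0.33 and 0.54 without both arrays). Gc, the vitamin D binding protein, had a difference of 0.47 that was -0.30 without both.

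The apolipoproteins, which carry lipid in plasma, differed among themselves. Apoc1, an inhibitor of lipoprotein uptake, had levels of -3.93, -0.76 and -1.17 in controls and 1.36, -0.14 and -0.80 in treated rats. Apoa2, a component of high density lipoprotein, had levels of -5.52, -3.92 and -4.86 in controls and -1.55, -3.30 and -3.42 in treated rats; on control replicate 1 it was not well above background. Apoc1 overlapped between the groups and Apoa2 did not, and both were lowest on control replicate 1 and highest on dibromoethane replicate 1. Their differences of 2.09 (SE 1.18) and 2.01 (SE 0.76; 1.88 with the floor) were 0.49 and 1.03 without these 2 arrays. Apoa1, the main protein of high density lipoprotein, had a difference of 1.60 (0.80 without them), with no overlap between the groups.

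Apoc3, an inhibitor of lipoprotein lipase, was bright and nearly level, at 3.22, 3.00 and 3.15 in controls and 3.21, 3.26 and 3.13 in treated rats. Its range over the 3 control arrays was 0.22, against 3.17 for Apoc1. Apob, the structural protein of low density lipoprotein, had the most negative difference of the 34 genes at -0.50 (SE 0.34), and all 5 of its probes had a negative difference, between -0.50 and -0.08. It was -0.25 without dibromoethane replicate 3 and -0.79 without dibromoethane replicate 1, and within slide 2 it was 0.33, the opposite direction. Apoh, beta-2-glycoprotein I, had a difference of 0.22 that was -0.57 without the 2 arrays.

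Fabp1, the liver-type fatty acid binding protein, is placed here beside the lipid carriers. Its levels were -3.36, -0.39 and -0.80 in controls and 1.75, 0.13 and -0.95 in treated rats, so that dibromoethane replicate 3 lay below 2 of the 3 controls. The difference of 1.83 (SE 1.22) was 0.19 without control replicate 1 and dibromoethane replicate 1. Its other probe gave 1.71.

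Among the protease inhibitors, Serpinc1, antithrombin, was bright and level, at 6.50, 6.55 and 6.67, with 6.80, 6.65 and 6.61 in treated rats. Its range over the controls was 0.17, and its difference 0.11 (SE 0.08). Serpina1, alpha-1-antitrypsin, had levels of -5.22, -2.16 and -2.85 in controls and -0.06, -1.50 and -2.38 in treated rats. It was not well above background on control replicate 1, overlapped between the groups, and had a difference of 2.09 (SE 1.15; 2.06 with the floor) that was 0.56 without the 2 arrays. Serpina6, the corticosteroid carrier of plasma, was well above background on 2 of 3 arrays in each group and was not tested.

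Itih4, an inter-alpha-trypsin inhibitor heavy chain, had levels of -3.78, -1.16 and -1.82 in controls and 0.54, -0.79 and -1.51 in treated rats. The difference was 1.67 (SE 0.99), or 0.34 without the 2 arrays. Itih3, of the same family, had a difference of 0.62 that was -0.87 without them: its level on control replicate 3 (-0.92) was above those on dibromoethane replicates 2 and 3 (-2.06 and -2.75). Ahsg and Fetub encode the fetuins, inhibitors of mineral deposition. Fetub was higher on every treated array, at -0.54 ± 0.05 (SD, n = 3) against -0.95 ± 0.29 (SD, n = 3), and its difference of 0.41 was 0.58 without the 2 arrays.

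Of the clotting, kinin and acute phase genes, F2, prothrombin, was bright at 1.70 ± 0.77 (SD, n = 3) in controls and 2.15 ± 0.62 (SD, n = 3) in treated rats. Unlike Alb, F2 was lowest on control replicate 3 (0.86) and highest on dibromoethane replicate 3 (2.74), and its difference was 0.44, or 1.09 without control replicate 1 and dibromoethane replicate 1. Kng1, kininogen, had a difference of -0.35 with a range of 2.10 over the controls, and its second probe gave 0.16. Vtn, vitronectin, an adhesion protein, had a difference of 1.59 (0.45 without the 2 arrays). Plg, plasminogen, had a difference of 0.46 (0.27 without dibromoethane replicate 1 and 0.22 without both arrays). Orm1, an acute phase glycoprotein, was well above background on 0 of 3 control arrays and on 2 of 3 treated arrays, and was not tested.

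The enzymes held 1 bright gene and 3 that were at or near background. Hpd, which carries out a step of tyrosine breakdown that kidney shares with liver, was bright at 5.98 ± 0.31 (SD, n = 3) in controls and 6.28 ± 0.06 (SD, n = 3) in treated rats, with control replicate 1 level with the highest treated array at 6.34. Tat, tyrosine aminotransferase, and Cps1, the entry enzyme of the urea cycle, were not well above background on any of the 6 arrays. Tdo2, tryptophan dioxygenase, was well above background on dibromoethane replicate 1 alone. These 3 enzymes are abundant in hepatocytes. The probes of Tat and Cps1 give only an upper bound in cortex, as does that of Tdo2 on the arrays other than dibromoethane replicate 1.

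The 3 P450 genes, all predominant in male liver, differed in their pattern over the arrays. Cyp2c13 had levels of -6.97, -3.67 and -4.57 in controls and -0.52, -2.40 and -2.74 in treated rats, without overlap. Its control replicate 1 was also at background, so that the difference of 3.18 (SE 1.20) is 2.57 with that array at its floor, and it was 1.55 without the 2 arrays. Cyp2c11 had levels of -3.87, -0.54 and -0.85 in controls and -1.85, -0.39 and -3.32 in treated rats. Its difference was -0.10 (SE 1.36), or -1.16 without them. Cyp3a2 had levels of -7.11, -2.84 and -3.42 in controls and -2.58, -3.91 and -4.97 in treated rats, a difference of 0.63 (SE 1.50). Control replicate 1 was at background for Cyp3a2: with that array at its floor the difference was -0.03, without it -0.69, and without both arrays -1.31, so that no direction is read. Control replicate 1 was thus the lowest array for all 3 P450 genes, as for Alb, while dibromoethane replicate 3 stood below control replicates 2 and 3 for Cyp2c11 and Cyp3a2 and above them for Cyp2c13. These genes belong to families of similar sequence, and binding of a probe to a related transcript was not tested.

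**Figure D2:**
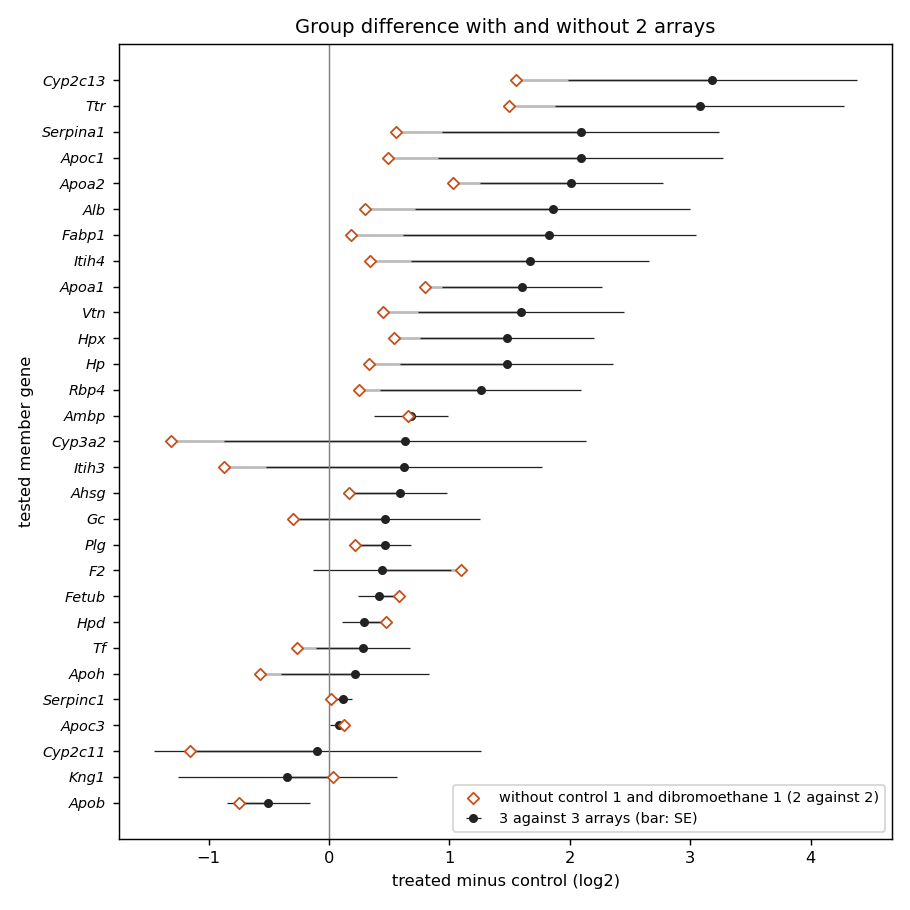
Treated minus control (horizontal axis, log2) for the 29 tested genes: black points are means of 3 against 3 arrays with their SE, and open diamonds leave out control replicate 1 and dibromoethane replicate 1. The median was 0.63 over all arrays and 0.30 without those 2, which were chosen after seeing the data.

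The spread within each group was large for most of these genes. The median range over the 3 control arrays was 1.70 for the 29 tested genes and 0.24 for all features, and 19 of the 29 (65.5%) had a control range over 1, beside 4.58% of all features. Control replicate 1 was the lowest of the 6 arrays for 20 of the 29 (10.5% of all features). Dibromoethane replicate 1 was the highest for 22 of the 29 (11.6% of all features). Both held for 19 of the 29 and for 2.29% of all features. The genes were chosen on the difference between the groups, which favours a control array as lowest and a treated array as highest. For Apoa2, Cyp2c13, Cyp3a2 and Serpina1, tested through the treated group alone, control replicate 1 was also the array at background. The shares are therefore descriptions only. Dibromoethane replicate 3 lay below control replicate 2 for 18 of the 29 (62.1%), beside 50.3% of all features.

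The gaps within the groups were then set side by side. Across the 29 genes the gap between control replicates 2 and 1 correlated with the gap between dibromoethane replicate 1 and the mean of replicates 2 and 3 (Pearson r = 0.74, a description across genes, which are not independent replicates and share these arrays). Over all features r was 0.09. Both gaps exceeded 1 for 16 of the 29 genes (55.2%) and for 0.321% of all features. The order of arrays from low to high was control 1, 3, 2 within the controls together with dibromoethane 3, 2, 1 within the treated for 15 of the 29 genes, and for 2.01% of all features.

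**Figure D3:**
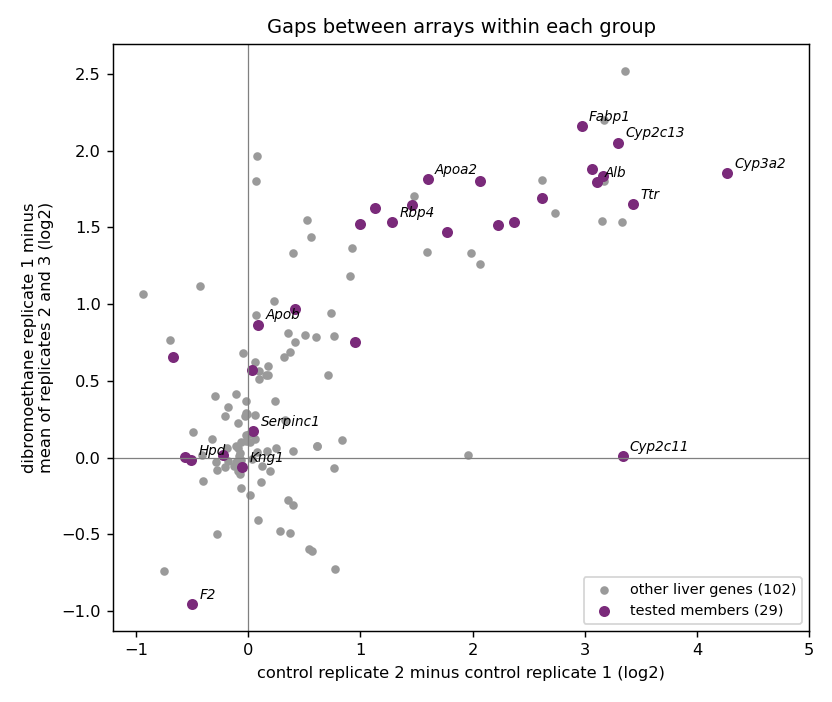
Gap between 2 control arrays (horizontal axis, log2) against the gap between dibromoethane replicate 1 and the mean of the other treated arrays (vertical axis, log2), for 29 tested genes (purple) and 102 other liver genes (grey). In 16 of the 29 both gaps exceeded 1, while Cyp2c11 had the control gap alone and F2 neither.

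For each gene the 6 levels were set beside the median profile of the other tested genes of the set. The r was over 0.9 for 13 of the 29, namely Alb, Ttr, Hp, Hpx, Apoa1, Apoa2, Apoc1, Fabp1, Serpina1, Itih4, Ahsg, Vtn and Cyp2c13 (a description over 6 arrays). Their control ranges ran from 0.42 to 3.43 and their differences from 0.59 to 3.18, with a median difference of 1.83 that was 0.49 without control replicate 1 and dibromoethane replicate 1. The r was below 0 for Hpd, F2 and Kng1. The bright genes other than Alb and Rbp4 (7 genes) had control ranges of 0.17 to 1.51. Summed as signal over the 75th percentile, the 25 intermediate and dim genes gave 4.06, 10.8 and 7.36 on the control arrays and 34.8, 15.6 and 9.39 on the treated arrays, while the 7 bright genes gave 181 to 198 in controls and 206 to 228 in treated rats. Most of the sum of the 7 came from Serpinc1 (90.5 to 112 over the arrays) and Hpd (55.1 to 81.1). Each of these 2 overlapped between the groups, so the sum says little of the other bright genes.

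Promoter sequence is shown for 3 genes, 2 that followed the shared profile and 1 that was bright and level, as the 250 bases before the start site in RefSeq, build GRCr8. Capitals mark the letters of a TATA box (TATAAA), a forkhead core (TGTTTNC) or part of an HNF1 motif (GTTAATNAT) on either strand; forkhead factors and HNF1 are regulators of hepatocyte genes, and HNF1 is also present in proximal tubule. Alb lies at chr14:17906980-17907229 (minus strand), Fabp1 at chr4:104749090-104749339 (plus strand) and Serpinc1 at chr13:75790308-75790557 (plus strand).
Alb: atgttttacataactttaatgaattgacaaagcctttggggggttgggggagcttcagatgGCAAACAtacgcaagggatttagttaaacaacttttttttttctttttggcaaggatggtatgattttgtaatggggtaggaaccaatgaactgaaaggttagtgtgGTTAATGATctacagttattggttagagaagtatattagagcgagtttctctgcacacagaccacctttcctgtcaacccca
Fabp1: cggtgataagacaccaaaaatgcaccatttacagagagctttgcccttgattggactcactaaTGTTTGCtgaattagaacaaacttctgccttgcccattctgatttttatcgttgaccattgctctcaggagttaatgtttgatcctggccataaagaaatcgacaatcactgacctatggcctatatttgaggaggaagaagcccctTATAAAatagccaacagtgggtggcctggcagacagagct
Serpinc1: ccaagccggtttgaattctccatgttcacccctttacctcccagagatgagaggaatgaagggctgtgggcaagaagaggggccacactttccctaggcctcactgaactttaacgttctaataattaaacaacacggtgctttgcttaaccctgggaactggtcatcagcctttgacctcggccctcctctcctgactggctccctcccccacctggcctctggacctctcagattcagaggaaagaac
None of the 3 motifs was found in the Serpinc1 window. Promoters were matched for 27 of the 34 genes. The forkhead core was found in 14 of the 27 and in 18.3% of all promoters of this length, the TATA box in 9 of the 27 and in 12.9%, and the HNF1 letters in Alb, Gc and Plg and in 0.666% of all promoters. Of 114 hepatocyte genes outside the set, 33 held the forkhead core, 21 the TATA box and 8 the HNF1 letters. The forkhead core was also found in the bright genes Tf, Ambp and Plg and in Kng1, whose r was below 0. The 3 windows shown thus do not stand for their classes. The 3 motifs overlapped in none of the windows printed. These matches are descriptions and not evidence of binding.

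Probes of a gene differed for some members. Of the 34 genes 13 had more than 1 probe. The brightest Ahsg probe had a difference of 0.59, while its other probes gave 2.67 and 2.51. The other Plg probe gave 1.52 and was well above background on dibromoethane replicate 1 alone. The 3 Alb probes gave 1.86, 1.43 and 2.06, and the 2 Rbp4 probes 1.26 and 1.34, so that these genes did not depend on the probe for their direction. The class in control cortex did depend on the probe for some genes. The Alb probe that gave 2.06 and the other Ttr probe were well above background on 2 of 3 control arrays. The other Plg probe was so on 0 of 3.

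By slide, dibromoethane replicate 2 shared the first of 3 slides with 2 controls, replicates 1 and 2. Dibromoethane replicate 1 shared slide 2 with control replicate 3, and dibromoethane replicate 3 was alone on slide 3. The median difference of the 29 genes was 1.11 within slide 1 (27 of 29 higher) and 1.26 within slide 2 (28 of 29 higher). Slide 1 held control replicate 1, the lowest array for 20 of the 29. Slide 2 set dibromoethane replicate 1, the highest for 22 of the 29, against 1 control array. The genes were also chosen on this comparison, so the 2 medians are not read as agreement between slides. For Alb the differences within slides 1 and 2 were 1.71 and 2.31. Slide 1 thus held both the lowest array for Alb, control replicate 1, and the second highest, dibromoethane replicate 2. Between 59.2% and 67.8% of probes were well above background per array, 62.0% on control replicate 1 and 67.8% on dibromoethane replicate 1, the highest. The part of this share in the result was not tested.

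Hepatocyte genes outside the set were listed from general knowledge, with earlier results of these data known: 72 secreted proteins and 80 enzymes and transporters, of which 139 were on the array and 102 tested. Of the 102, 73 were higher and 29 lower in treated rats, with a median difference of 0.20, and 60 were higher, with a median of 0.13, without control replicate 1 and dibromoethane replicate 1. In limma 0 of the 102 passed an adjusted p of 0.05 (0.0311% of all features did). An unadjusted p under 0.05 was found for 31 of the 102, beside 11.1% of all features. Of these, 25 were higher, beside 4.52% of all features, and 6 were lower. Several of the 102, such as Pon1, Akr1d1 and Ugt2b1, were tested through the treated group alone, which favours a higher treated mean. The counts and medians of this list are therefore descriptions only. Both gaps described above exceeded 1 for 11 of the 102. The list holds genes that kidney itself transcribes in quantity, such as Bhmt and Hsd11b1.

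Among the tested secreted proteins the largest differences were those of Pon1, Mug1, Mup4 and Hamp. Mug1, a plasma protease inhibitor of rodents, had levels of -3.20, -0.47 and -0.94 in controls and 1.63, 0.23 and -0.16 in treated rats, with the order of Alb within each group but no overlap between them. Mup4, a major urinary protein made by male liver, had a difference of 1.87 that was 0.26 without the 2 arrays, control replicate 1 being at background. Hamp, the iron hormone hepcidin, had 1.87, with its highest level on dibromoethane replicate 3 (-1.68). Pon1, paraoxonase, was above the background call in 0 of 3 controls and 3 of 3 treated rats, with a fold of at least 3.19 (limma adjusted p = 0.237).

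Among the tested enzymes, Akr1d1 and Ugt2b1 had the largest differences. Akr1d1, a steroid 5-beta-reductase, and Ugt2b1, a glucuronosyltransferase, were at background in every control, including replicate 2 where Alb was at 1.94. Both passed the background call in 3 of 3 treated rats, at -2.42, -4.10 and -4.34 for Akr1d1 and -2.29, -4.12 and -4.39 for Ugt2b1, with dibromoethane replicate 1 highest as for Alb. Their controls were too dim to show an order. Akr1d1 was at least 2.97-fold higher there (limma adjusted p = 0.201). For Ugt2b1 the fold was at least 3.02 (limma adjusted p = 0.222). A bound compares the treated mean with the higher of the probe's own signal and the lowest signal well above background on each control array. Cyp2c7 and Cyp2c6v1, hepatic P450 genes, had differences of 2.52 and 2.50 with control replicate 1 lowest, at background, and dibromoethane replicate 1 highest. With the floor they were 1.79 and 1.84, without control replicate 1 1.22 and 1.58, and without both arrays 0.38 and 1.07.

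Among markers of liver cells other than hepatocytes, Clec4f had the profile of the set (r = 0.99 over the arrays), while the list median did not follow it. Of 20 listed, 15 were on the array and 8 tested, 2 higher and 6 lower, with a median of -0.25. All of the 8 but Clec4f were well above background on every control and treated array. Their levels in cortex, and so the list median, do not single out liver cells. In limma 0 of the 8 passed an adjusted p of 0.05, beside 0.0311% of all features. An unadjusted p under 0.05 was found for 3 of the 8 (1 higher in treated rats), beside 11.1% of all features. Clec4f, a lectin of Kupffer cells, the liver's resident macrophages, was well above background on 2 of 3 control and all 3 treated arrays, at -5.47, -4.41 and -4.72 in controls and -3.09, -4.11 and -4.36 in treated rats, with no overlap (difference 1.01, SE 0.50, limma adjusted p = 0.446; 0.33 without the 2 arrays). The Kupffer cell markers Cd5l and Vsig4, named here after their values were seen, were not well above background on any array, and Marco was on control replicate 3 alone. Krt19, an epithelial keratin of bile duct and collecting duct, had a difference of -1.34 that was -0.55 without dibromoethane replicate 1 and -0.24 without control replicate 1 as well. Fcgr2b, an Fc receptor, had -0.95 and Dnase1l3 -0.48. The summed signal of the list, over the 75th percentile, was 22.0 to 25.4 in controls and 18.6 to 22.5 in treated rats. Krt7, a duct keratin, made up 75.3% to 80.9% of that sum on each array, so that it says little of the other markers, which summed to 4.20 to 5.73 in controls and 3.94 to 4.97 in treated rats.

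Genes with a profile like that of the set were sought among the 233 other named, tested genes with a range of at least 2 over the 6 arrays. In 29 of the 233 r was over 0.9, and 14 of these 29 were on the liver lists above. The share of the 233 on those lists is not given here, so the 14 have no base to be set against. The lists were written with earlier results of these data known, and the profile includes the group difference. The overlap is a description only. The 12 most alike (r from 0.96 to 0.99 over 6 arrays) were Clec4f, Serpina3c, Saa4, F12, Rdh7, Ces1c, Mug1, Mat1a, Cyp2b3, Mup4, Serpina3n and Mup4l3. Ces1c, a plasma carboxylesterase, had levels of -5.31, -2.59 and -2.64 in controls and 0.51, -1.22 and -2.48 in treated rats. Mat1a, the methionine adenosyltransferase of liver, was at -4.39, -2.92 and -3.14 and at -0.50, -1.98 and -2.43.

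**Figure D4:**
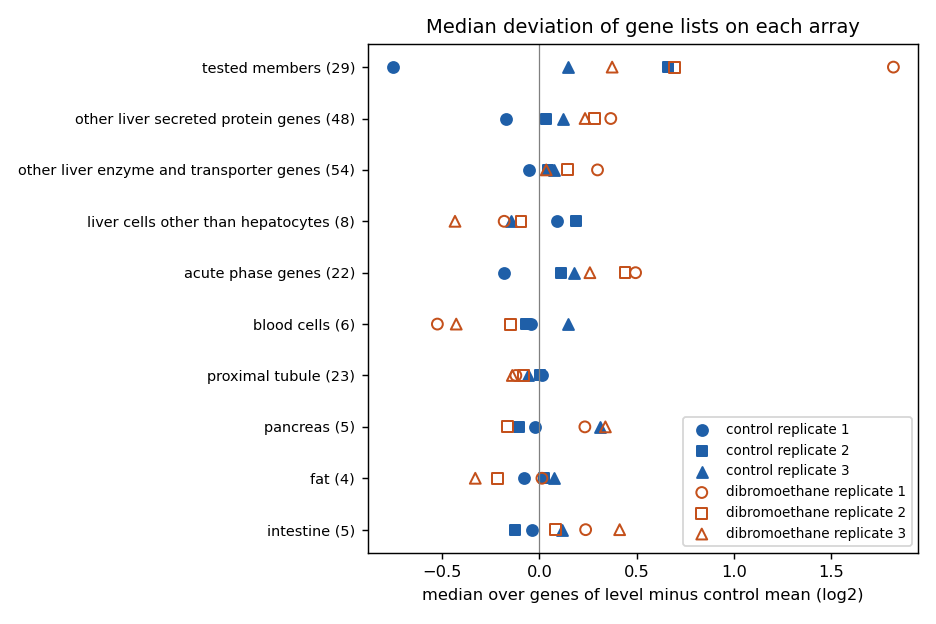
Median over the tested genes of a list of level minus control mean (horizontal axis, log2), for each of the 6 arrays, with the number of genes in brackets. The set spans -0.75 (control replicate 1) to 1.82 (dibromoethane replicate 1), and the other lists shown lie between -0.52 and 0.50.

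Lists of other tissues were set beside these values. Acute phase genes, which share Orm1, Hp and Hpx with the set, had a median difference of 0.15 with 16 of 22 tested genes higher. The largest in that list was Fgg, the fibrinogen gamma chain, at -6.24, -3.48 and -3.68 in controls and -0.63, -2.68 and -2.54 in treated rats. Haem oxygenase 1 (Hmox1), in contrast, was level in controls (-1.57, -1.57 and -1.22) and higher in all treated rats (0.30, -0.43 and 0.56; log2 difference 1.59, limma adjusted p = 0.222). Pancreas genes had a median of 0.15 (5 tested of 14), fat genes -0.17 (4 tested), intestine genes 0.22 (5 tested) and adrenal genes 0.17 (2 tested), and of 8 skeletal muscle genes on the array 0 were tested. Blood cell genes had a median of -0.37, with deviations of -0.52, -0.15 and -0.43 on the treated arrays, and the summed signal was 546 to 612 in controls and 376 to 489 in treated rats. Genes of the tubule, 21 of the proximal tubule with Umod and Slc12a1 of the thick ascending limb, had a median of -0.12, and all 23 were well above background on all 6 arrays. The part of these lists in the result was not tested. In limma 0 genes of these lists passed an adjusted p of 0.05, beside 0.0311% of all features. An unadjusted p under 0.05 was found for 11.1% of all features. It was found for 6 of 22 acute phase genes (5 higher in treated rats) and 5 of 23 tubule genes (0 higher). For blood cell genes it was 3 of 6 (0 higher) and for intestine genes 2 of 5 (1 higher).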

How the data were processed

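Renal cortex RNA of 3 control and 3 treated rats was hybridised to single-colour Agilent arrays (design 045522), and each array's groups came from the labels. The deposited scanner files hold spot intensity made with Feature Extraction 10.7.1.1, per the file headers (10.7 per the submitters' processing notes). Its processed signal is background-subtracted. The deposited series table holds linear intensity relative to each array (column medians of 0.10 to 0.11), whose log2 values differed from the levels used here by a median of at most 0.0021 per array. The direction is treated minus control throughout.

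Of 62976 spots, 1439 control spots and 84 ERCC spike-in probes were left out, leaving 61453 probes. Of these 28193 matched a single gene symbol in a RefSeq gene reference (15639 genes), and 33260 matched none or more than 1. Levels are log2 processed signal minus each array's 75th percentile. The probe with the highest mean signal represented a gene, and probes without a symbol stood for themselves. A feature had to pass the background call on each of the 3 arrays of either group to be tested in limma 3.58.1 (R 4.3.3, Python 3.11.15), two-sided, with Benjamini-Hochberg adjustment over 28960 features at 0.05. The procedure was tested on simulated data. The number of arrays limits the precision.

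The 34 genes and all lists were chosen with earlier results of these data known. Every array value is given for the 8 tested genes with the largest absolute difference, the 3 with the smallest, and those dim in controls but well above background on all treated arrays. Outside the set at most 4 tested genes per list with the largest absolute difference and the 12 most alike in profile were named, with exceptions stated. Values without control replicate 1 and dibromoethane replicate 1, a scan day block, and the floor were chosen after seeing the data. The alternatives covered normalization, background correction, filter, probe choice, slide, replicate number and left-out arrays. Normexp (offset 50) was run on the median signal; a mean signal was not used here. Promoter sequences came from RefSeq, GRCr8; the array headers name rn4, and no coordinates of it were used.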

Additional observations from a re-analysis of the deposited data

How the results depend on the processing

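In limma, 9 of the 28960 features had an adjusted p under 0.05. This count was 5 with median centring, 5 with normexp, 2 without a filter on dim probes, 17 with trend and robust, 2 with scan day as a block, and 1 to 10 when any 1 array was left out. It was 0 with slide as a fixed block (3513 at an unadjusted p under 0.05), 0 on the slides that hold both groups (3528), 0 with the replicate block (3467), and 0 without control replicate 1 and dibromoethane replicate 1 (1964). The cause was not tested. The replicate numbers were not taken as pairs, since the labels do not say that they pair animals. Same-numbered control and treated arrays deviated with r of -0.19, 0.26 and 0.16, and differently numbered ones with r between -0.32 and 0.20. With 3 arrays a group these values cannot decide whether the numbers pair animals. The replicate block left 26 genes of the set higher.

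The number of tested genes of the set that were higher was 22 to 31 over all alternatives (26 of 29 as reported), and their median difference 0.27 to 1.26 (0.63 as reported). The number tested also changed with the filter, so these counts do not share a denominator. It was 31 of 34 without a filter and 22 of 25 with the filter on all 6 arrays. The lowest median came without control replicate 1 and dibromoethane replicate 1, with the features tested again on the remaining arrays. Of the other liver genes 0 to 1 passed when 1 array was left out (Masp2, without dibromoethane replicate 3) and 0 under the other alternatives. With 3 arrays a group, the larger differences were smaller without control replicate 1 and dibromoethane replicate 1. These arrays were chosen after seeing the data, as the lowest and highest for most of the genes. The decrease therefore follows largely by construction, and no conclusion is drawn from it. Probes not well above background give only bounds, which limits Orm1, Tdo2, Cps1, Tat and Serpina6, and, through control replicate 1, Apoa2, Cyp2c13, Cyp3a2 and Serpina1. With such arrays at the floor 25 of the 29 genes were higher, with a median of 0.62.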
